A study of Mus musculus with 8 samples.

Results

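The netrin receptors are 5 genes, Unc5a, Unc5b, Unc5c, Unc5d and Dcc, which were taken by symbol from the 14166 genes of the deposited table, and all 5 were found there. Netrins are secreted guidance cues that growing axons and migrating neurons read through these receptors. Dcc is the receptor for attraction to netrin-1, and the Unc5 proteins, alone or together with Dcc, turn the response into repulsion. Both kinds of receptor carry intracellular signalling domains, and in the developing cortex they guide callosal, corticofugal and migrating neurons.

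Nuclei of the dorsal telencephalon, the tissue that forms the cerebral cortex, were profiled from C57BL/6J mouse embryos at E15.5 by droplet single-nucleus RNA sequencing. The 4 wildtype and 4 Pantr2-/- samples differ in Pantr2, a long noncoding RNA gene, and no other allele or treatment is named for either group. The labels do not say whether a sample is 1 embryo or several, so p-values measure the spread between these samples. Counts of Pantr2 were not analysed here, and the genotypes rest on the labels.

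The data held 67319 nuclei (33781 wildtype and 33538 knockout), with 7280 to 10921 nuclei and 20446698 to 34083796 unique molecular identifiers (UMIs, each standing for 1 captured transcript) per sample. The authors' 7 deposited clusters were used. By their markers, cluster 1 was upper-layer neuron-like (Cux1, Cux2, Pou3f1), clusters 2 (Bcl11b, Fezf2, Ldb2, Sox5) and 3 (Tle4, Foxp2, Tbr1, Hs3st4) deep-layer neuron-like, cluster 4 apical progenitor-like (Pax6, Hes5, Vim) and cluster 5 intermediate progenitor-like (Eomes, Neurog2). Clusters 6, led by Tafa1, and 7, led by Zfp385b, stayed unnamed. Wildtype replicates 3 and 4 carried the choroid plexus transcript Ttr at 123 and 36.9 CPM (UMIs of a gene scaled to a common total), against at most 2.52 in the other samples. Xist was at 0 UMIs in wildtype replicate 4 and knockout replicates 1 and 4. A barcode also found in another library was carried by 1023 nuclei.

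The 5 genes lie apart in the genome. On GRCm38 (GENCODE M21), Unc5a spans chr13:54949411-55006018 on the plus strand, Unc5b chr10:60762593-60831581 on the minus strand, Unc5c chr3:141465216-141834924 on the plus strand, Unc5d chr8:28646717-29219636 on the minus strand and Dcc chr18:71253634-72351069 on the minus strand. Their spans run from 56.6 kb for Unc5a to 1097 kb for Dcc. Since UMIs were not scaled by length, levels were compared within a gene, and counts of different genes describe detection only. Antisense genes lie across Unc5c, and the transcript Svet1 lies within Unc5d on its strand; neither has a row of its own in the table.

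Each receptor had its own distribution over the clusters. These levels are CPM within a cluster of a sample (mean ± SD, n = 4 samples), and since the clusters were made from the same nuclei they are given as a description, without a test. Unc5c in wildtype samples was highest in deep-layer-like cluster 3, at 327 ± 31.7 CPM, and its samples did not overlap those of the next cluster. Cluster 6 followed at 212 ± 42.5, cluster 2 at 142 ± 60.9 and cluster 1 at 108 ± 27.3 CPM, and these 3 neighbours overlapped in turn. Clusters 4 and 5 held 43.3 ± 8.36 and 42.0 ± 6.93 CPM, and cluster 7 was lowest at 17.9 ± 6.94. Every wildtype sample of the neuron-like clusters 1, 2 and 3 and of cluster 6 thus lay above every wildtype sample of the progenitor-like clusters 4 and 5. Those of the unnamed cluster 7, at 10.8 to 27.4 CPM, lay below every wildtype sample of clusters 4 and 5.

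Unc5d showed the widest range. Its wildtype level was 7089 ± 540.4 CPM in intermediate progenitor-like cluster 5 and 3023 ± 270.4 in upper-layer-like cluster 1, without overlap between them. It fell through clusters 4 (916 ± 199), 6 (756 ± 162) and 7 (386 ± 28.9) to 143 ± 65.9 in cluster 2 and 104 ± 63.5 in cluster 3. Svet1, the transcript within the Unc5d locus, is a textbook marker of the subventricular zone and upper layers. In clusters 2, 3 and 6 replicate 1 was the highest sample of both genotypes.

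Dcc was also highest in cluster 5, at 7176 ± 863 CPM in wildtype samples, and overlapped there with cluster 7 at 6963 ± 187. Upper-layer-like cluster 1 (3741 ± 420.1) and deep-layer-like cluster 2 (3334 ± 418) came next and overlapped each other. Clusters 6 (2220 ± 113), 4 (2171 ± 111) and 3 (1968 ± 134) formed the low end. Dcc and Unc5c thus had nearly opposite ends in wildtype samples: cluster 3 was highest for Unc5c and lowest for Dcc, and cluster 7 was lowest for Unc5c and came next after cluster 5 for Dcc.

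Unc5a and Unc5b gave few UMIs. Unc5a, a neuronal member of the family, was highest in cluster 6 at 65.7 ± 7.88 CPM, next in cluster 7 at 39.6 ± 4.81 and lowest in apical progenitor-like cluster 4 at 8.04 ± 2.95, with no overlap at these steps. Unc5b, best known from blood vessels, stayed between 2.02 ± 0.13 CPM in cluster 2 and 9.18 ± 1.22 in cluster 5. Over all nuclei wildtype samples together gave 545 and knockout samples 524 of its UMIs, so differences of Unc5b rest on few molecules.

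**Figure D1:**
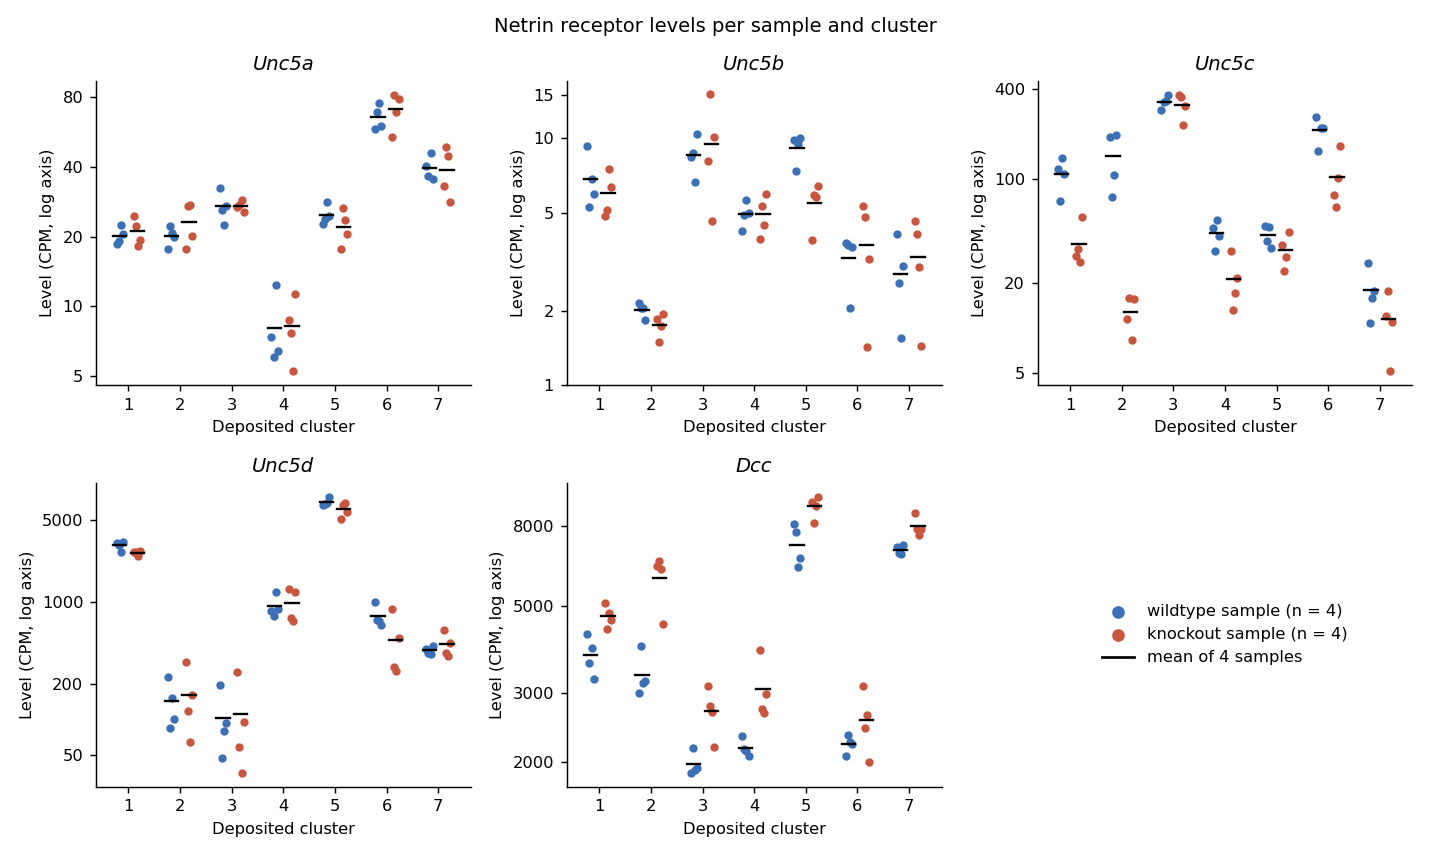
Levels of the 5 netrin receptors (CPM, log axis, a different range in each panel) in each of the 7 deposited clusters, with 1 point per sample and a black bar at the mean of 4 samples. Unc5c knockout samples lie below all wildtype samples in clusters 1 and 2 and overlap them in cluster 3, while Dcc knockout samples lie above the wildtype samples in clusters 1 to 5 and 7.

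Comparison of knockout with wildtype asked whether loss of Pantr2 goes with other receptor levels. Over all nuclei, Unc5c was 149, 117, 159 and 163 CPM in wildtype replicates 1 to 4 and 80.7, 75.3, 59.0 and 98.7 CPM in knockout replicates 1 to 4. All 4 knockout samples lay below all wildtype samples. Unc5c fell by 0.89 ± 0.15 (SE) on the log2 scale with an adjusted p of 0.0107 (edgeR quasi-likelihood test, Benjamini-Hochberg over all genes). Dcc was 3566, 3722, 3375 and 3376 CPM in wildtype and 5239, 4725, 4931 and 4415 CPM in knockout samples, again without overlap, and rose by 0.47 ± 0.07 with an edgeR adjusted p of 0.00456. Unc5a (−0.12 ± 0.11), Unc5b (−0.04 ± 0.13) and Unc5d (−0.03 ± 0.09) did not pass the test. Thus 2 of 5 receptors were called, meaning an edgeR adjusted p under 0.05, where 5.26% of all genes tested were. Sums over all nuclei also carry the makeup of a sample, and cluster 6 took 9.37% to 12.7% of wildtype nuclei and 4.31% to 8.11% of knockout nuclei.

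Within the clusters, 8 of 32 tests of a receptor were called, 3 for lower Unc5c and 5 for higher Dcc. Unc5a (7 clusters tested), Unc5d (7) and Unc5b (4, the others failing the filter on low counts) gave no call with edgeR, and 1 test each of Unc5b and Unc5d had an unadjusted p under 0.05. DESeq2 called none of the 3 either. Of all genes tested in clusters 1 to 7, the shares called were 4.84%, 9.11%, 3.36%, 4.29%, 1.77%, 0.779% and 1.03% in that order. The median log2 change of all genes was 0.00 in every cluster except cluster 4, where it was 0.01.

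Unc5c fell furthest in deep-layer-like cluster 2. Wildtype replicates 1 to 4 held 190.5, 75.1, 105 and 196 CPM there, and knockout replicates 1 to 4 held 11.5, 15.9, 8.28 and 15.7 CPM. The highest knockout sample lay far below the lowest wildtype sample. The log2 fold change was −3.45 ± 0.31, a 10.9-fold lower level, with an edgeR adjusted p of 2.2e-05. Over the alternatives within cluster 2 that left out 1 sample each, it lay between −3.65 and −3.26.

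The fall was smaller in upper-layer-like cluster 1. Unc5c was 115, 70.9, 136 and 108 CPM in wildtype and 30.2, 34.1, 27.7 and 55.3 CPM in knockout samples. The groups did not overlap, and the log2 fold change was −1.52 ± 0.21 (edgeR adjusted p 0.000704). In apical progenitor-like cluster 4, Unc5c was 46.6, 32.9, 52.6 and 41.3 CPM in wildtype and 33.1, 13.3, 17.3 and 21.8 CPM in knockout samples, so knockout replicate 1 reached just above wildtype replicate 2. The change of −0.99 ± 0.25 was called with edgeR (adjusted p 0.0443) and lost that call when wildtype replicate 1, 3 or 4, or else knockout replicate 2, 3 or 4, was left out, with edgeR adjusted p-values from 0.0808 to 0.139.

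Cluster 3, where Unc5c is most abundant, was not called. Its wildtype samples held 286, 326, 331 and 364 CPM and its knockout samples 360.4, 349, 227 and 306 CPM. Knockout replicate 3 alone lay below the wildtype range. The log2 change was −0.05 ± 0.12, with a 95% interval from −0.30 to 0.21 and an edgeR adjusted p of 0.910, so a fall of the size seen in cluster 1 lies outside its interval.

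In cluster 6 Unc5c was 257, 154, 219 and 217 CPM in wildtype and 77.5, 64.7, 102 and 165 CPM in knockout samples, with knockout replicate 4 above wildtype replicate 2. The change of −1.09 ± 0.24 missed the threshold with edgeR (adjusted p 0.0584) and passed it when replicate numbers were paired as a block (−1.10 ± 0.15, edgeR adjusted p 0.0016). Cluster 5 (−0.35 ± 0.17) and cluster 7 (−0.55 ± 0.31) were not called with edgeR, and their groups overlapped.

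Dcc rose in 5 of 7 clusters and most in cluster 2. There the wildtype samples held 3000, 3946, 3180 and 3210 CPM and the knockout samples 6324, 6515, 6197 and 4487 CPM. Knockout replicate 4 stood apart from the other knockout samples, yet above every wildtype sample. The log2 fold change was 0.82 ± 0.12, a 1.77-fold higher level, with an edgeR adjusted p of 0.000544, and without knockout replicate 4 it was 0.94.

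In the other called clusters Dcc rose less. Cluster 1 went from 4233, 3569, 3902 and 3260 CPM in wildtype to 5083, 4367, 4795 and 4592 CPM in knockout samples (0.36 ± 0.08, edgeR adjusted p 0.0143). Cluster 3 went from 1871, 2165, 1905 and 1930 CPM to 3114, 2774, 2675 and 2183 CPM (0.48 ± 0.09, edgeR adjusted p 0.0106). Cluster 4 went from 2327, 2155, 2133 and 2069 CPM to 3862, 2727, 2661 and 2983 CPM (0.52 ± 0.11, edgeR adjusted p 0.0176). In clusters 1, 3 and 4 every knockout sample exceeded every wildtype sample, by the narrowest margin in cluster 3. The call was lost in cluster 1 without wildtype replicate 2 or knockout replicate 3 (edgeR adjusted p 0.0583 and 0.0647) and in cluster 4 without wildtype replicate 2 or 4 (0.0585 and 0.0627).

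Cluster 5, where Dcc is most abundant, held 8076, 7729, 6269 and 6630 CPM in wildtype and 9231, 8147, 9013 and 9516 CPM in knockout samples. The groups did not overlap, and the change of 0.35 ± 0.08 had an edgeR adjusted p of 0.0489, which became 0.0505 with the replicate numbers as a block and between 0.0506 and 0.163 without each sample in turn other than wildtype replicate 1. Cluster 7 also had no overlap (6780 to 7154 CPM in wildtype, 7574 to 8652 CPM in knockout samples). Its change of 0.22 ± 0.06 missed the threshold with edgeR (adjusted p 0.150) and passed it with the block (adjusted p 0.0230). In cluster 6 Dcc overlapped between the genotypes (0.22 ± 0.11, edgeR adjusted p 0.573).

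Unc5d, whose own highest level was in intermediate progenitor-like nuclei, gave no call with edgeR. In cluster 5 it was 6673, 6831, 6972 and 7878 CPM in wildtype and 5067, 6737, 6964 and 5810 CPM in knockout samples, with overlap (−0.18 ± 0.10, edgeR adjusted p 0.614). In cluster 1 it was 3163, 3033, 2642 and 3256 CPM in wildtype and 2671, 2641, 2435 and 2731 CPM in knockout samples. That change of −0.17 ± 0.07 had an edgeR adjusted p of 0.177, and of 0.0362 with the replicate block. In cluster 6 Unc5d was 996, 699, 692 and 638 CPM in wildtype and 874, 279, 256 and 497 CPM in knockout samples, and replicate 1 was highest in both. Its change of −0.65 ± 0.31 had an edgeR adjusted p of 0.520, and of 0.0276 with the block.

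Unc5a varied between −0.10 and 0.23 log2 over the 7 clusters, with edgeR adjusted p-values from 0.433 to 0.994 and overlapping groups in each. The lowest log2 change of Unc5b was in cluster 5, with 9.85, 7.38, 9.44 and 10.04 CPM in wildtype and 3.89, 5.89, 5.76 and 6.42 CPM in knockout samples. The groups did not overlap, but the change of −0.71 ± 0.23 did not pass the test (edgeR adjusted p 0.185).

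**Figure D2:**
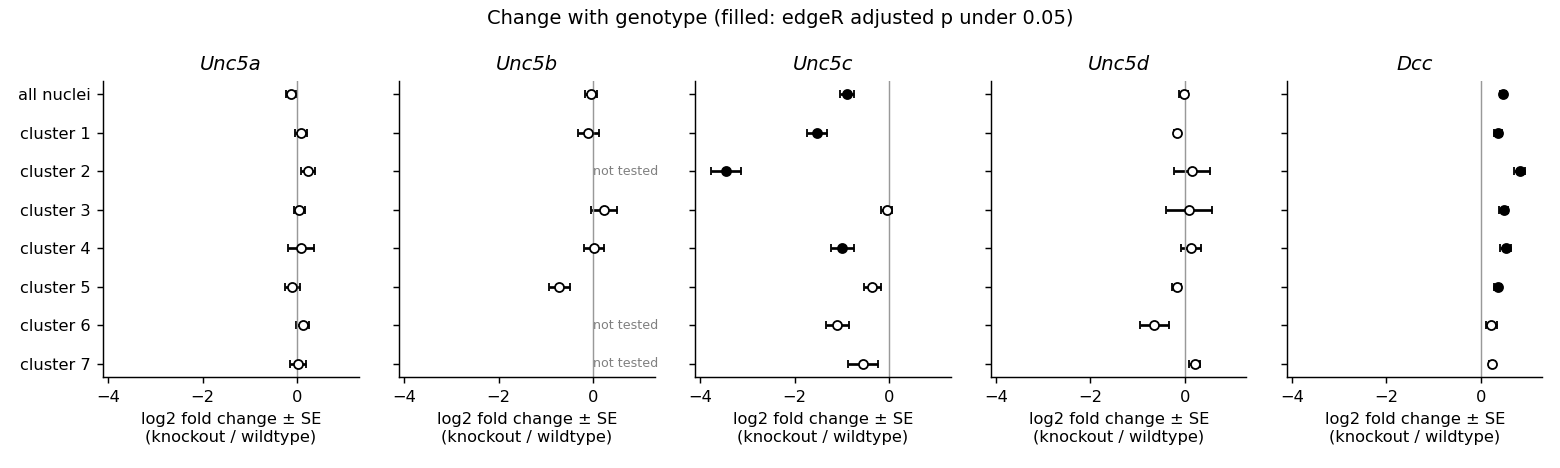
Log2 fold change of each receptor, knockout over wildtype (± SE, edgeR), over all nuclei and in each cluster; filled points passed the adjusted threshold and "not tested" marks clusters where Unc5b failed the filter on low counts. The lowest Unc5c point is cluster 2 at −3.45, and all Dcc points lie to the right of 0.

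Whether cluster 2 differed from the other clusters was tested directly, as the difference between the genotype changes of cluster 2 and of each other cluster, with a term per sample. Cluster 2 was taken as the reference because earlier results of these data had named Unc5c there. The Unc5c calls below are therefore not independent of that choice. Of 29 such tests of a receptor 11 were called with edgeR, against 3.5%, 5.52%, 3.95%, 2.53%, 2.85% and 4% of all genes for clusters 1, 3, 4, 5, 6 and 7. The Unc5c change in cluster 2 was lower than in all 6 others, by 1.87 log2 units against cluster 1 (−1.87 ± 0.26, edgeR adjusted p 6.4e-05) and by the most against cluster 3 (−3.34 ± 0.27, edgeR adjusted p 3e-08). The differences from clusters 4, 5, 6 and 7 were −2.36, −3.09, −2.28 and −2.84.

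For Dcc the change in cluster 2 exceeded those in clusters 1 (0.45 ± 0.12, edgeR adjusted p 0.0284), 3 (0.36 ± 0.05, edgeR adjusted p 7.6e-05), 6 (0.63 ± 0.10, edgeR adjusted p 0.00153) and 7 (0.59 ± 0.11, edgeR adjusted p 0.00239). The differences from cluster 4 (0.31, 95% interval −0.04 to 0.67) and cluster 5 (0.45, 0.14 to 0.76) did not pass the edgeR threshold. The call against cluster 1 was lost with DESeq2 (adjusted p 0.0981) and on leaving out wildtype replicate 1 or 3, or else knockout replicate 1, 2 or 3 (edgeR adjusted p 0.0727 to 0.159). Of the other receptors, Unc5d had a change 0.89 ± 0.18 higher in cluster 2 than in cluster 6 (edgeR adjusted p 0.0117), and 0 of 11 tests of Unc5a and Unc5b were called, 1 of them with an unadjusted p under 0.05.

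**Figure D3:**
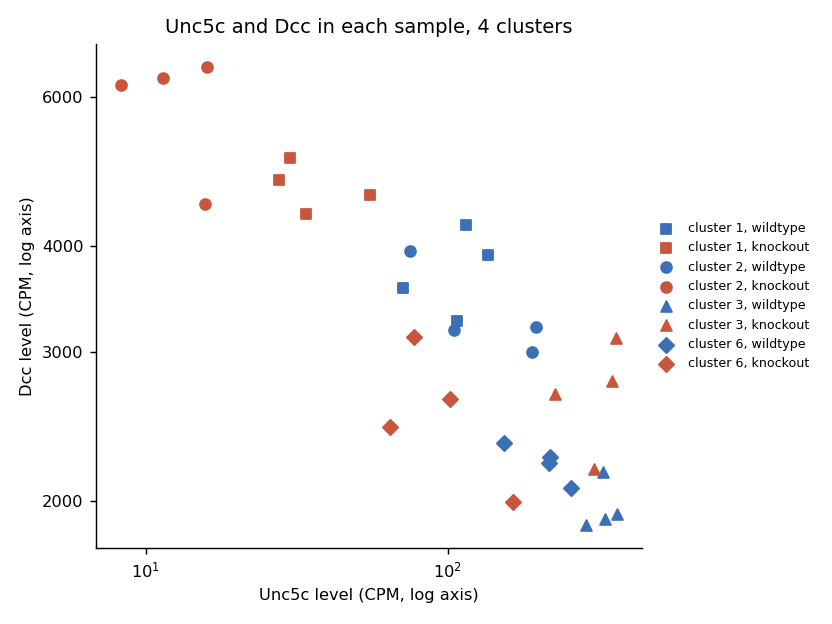
Unc5c against Dcc level (CPM, both axes log) in each of the 8 samples for clusters 1, 2, 3 and 6, with shape giving the cluster and colour the genotype. Knockout samples of cluster 2 sit at the upper left, between 8.28 and 15.9 CPM of Unc5c and from 4487 CPM of Dcc upwards, while the genotypes of cluster 3 separate on the Dcc axis and overlap on the Unc5c axis.

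Markers of neuron classes moved within clusters 1 and 2, where 4.84% and 9.11% of all genes tested were called with edgeR. In cluster 2, 5 of 7 upper-layer markers fell and 1 rose, with a summed level of 1059 to 1492 CPM in wildtype and 959 to 1086 CPM in knockout samples. In the same cluster 5 of 10 deep-layer markers rose and 0 fell (8671 to 10633 CPM against 12328 to 14400.1 CPM). In cluster 1, 4 of 7 upper-layer markers fell (2071 to 2458 CPM against 1391 to 1672 CPM) and 5 of 10 deep-layer markers rose (2562 to 3063 CPM against 3883 to 5271 CPM). Of 12 interneuron markers 9 were tested in each of these clusters, where 4 fell in cluster 1 (90.3 to 137 CPM against 55.3 to 86.1 CPM) and 3 in cluster 2 (85.8 to 120.05 CPM against 52.3 to 113 CPM), or 5 in each with the replicate block. Subplate markers rose in 2 of 4 tests in cluster 1 (248 to 284 CPM against 347 to 395 CPM) and in 2 of 4 in cluster 2 (154 to 181 CPM against 225 to 301 CPM). Striatal markers fell in 2 of 5 tests in cluster 1 and 2 of 6 in cluster 2, with summed levels that overlapped between the genotypes. Of 5 thalamic markers tested 2 rose and 2 fell in cluster 1 and 1 rose in cluster 2, and each further list had at most 1 call in these clusters, or 2 with the block. Deep-layer markers also rose in clusters 3, 4, 5, 6 and 7, with 2, 2, 2, 1 and 2 of 10 called. The shares of all genes there were 3.36%, 4.29%, 1.77%, 0.779% and 1.03%. Summed over clusters 1 and 2, which the authors' deposited grouping joins, Unc5c fell by 2.30 ± 0.25 (edgeR adjusted p 0.000216) and Dcc rose by 0.60 ± 0.08 (edgeR adjusted p 0.000871), against 7.22% of all genes called. The part of the marker shifts in the receptor changes was not tested, and in sums over nuclei fewer expressing cells and less RNA per cell cannot be told apart.

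Counts per nucleus show how the Unc5c UMIs of cluster 2 were spread. Of 5725 wildtype nuclei 286 held 1 UMI, 234 held 2 to 4 and 186 held 5 or more. Of 5954 knockout nuclei 132 held 1 UMI, 22 held 2 to 4 and 5 held 5 or more. Nuclei with at least 2 UMIs thus numbered 420 in wildtype and 27 in knockout samples, and they held 88.9% and 41.3% of the cluster's Unc5c UMIs. The mean count of a nucleus with any Unc5c was 3.61 ± 0.85 in wildtype and 1.38 ± 0.18 in knockout samples. In cluster 3 these means were 6.81 ± 0.84 and 6.27 ± 0.90, with 768 and 671 nuclei at 2 UMIs or more.

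To compare shares at equal depth, each nucleus was thinned to 1400 UMIs. The share of cluster 2 nuclei with Unc5c was then 8.53% ± 3.24 in wildtype and 1.48% ± 0.31 in knockout samples (12.03% and 2.64% before thinning, at median depths of 2905 and 2728 UMIs). In wildtype cluster 7, the cluster with the lowest Unc5c level, the thinned share was 1.90% ± 0.69 (3.43% before thinning, at a median depth of 3146 UMIs). For Dcc the share in cluster 2 went from 80.4% ± 4.65 to 95.8% ± 2.85, and in cluster 4 from 59.8% ± 3.25 to 77.2% ± 5.34. All 70 ways to split the 8 samples into groups of 4 were used for exact permutation tests, two-sided, which gave their smallest possible p, 0.0286, for 7 of 35 shares: Unc5c in clusters 1 and 2, and Dcc in clusters 1, 2, 4, 5 and 7. None passed after adjustment (smallest adjusted p 0.143 by the exact permutation tests), which would have taken more than 20 tests at that smallest p. These splits do not use the replicate numbers as pairs, and swaps within the 4 pairs could not give a two-sided p under 0.125.

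**Figure D4:**
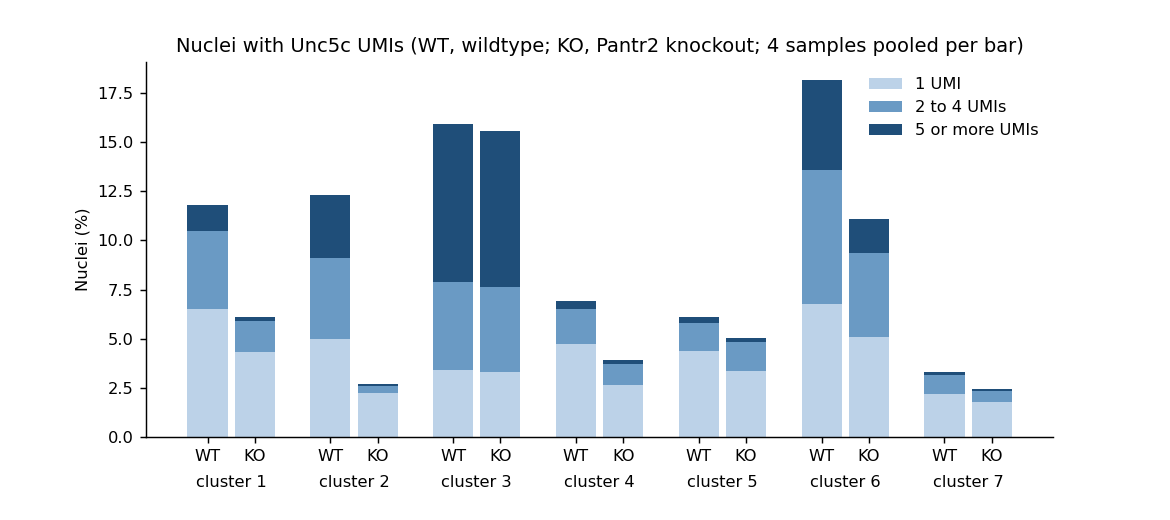
Percent of nuclei with 1, 2 to 4, or 5 or more Unc5c UMIs in each cluster, unthinned, with the nuclei of 4 samples pooled in each bar. In cluster 2 the 186 wildtype nuclei with 5 or more UMIs contrast with 5 knockout nuclei, while in cluster 3 that class holds 493 of 6119 and 432 of 5464 nuclei.

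Among wildtype nuclei of cluster 2, those with at least 2 Unc5c UMIs carried other genes at higher levels than those with 0. The 10 genes with the highest median log2 ratio over the 4 wildtype samples (of CPM + 10, a description without a test) were Kcnip4 (4.72), Tafa2 (3.94), Kif26b (3.72), Hs6st3 (3.37), Epha3 (3.00), Ptprk (2.86), Fn1 (2.76), Angpt1 (2.74), Lingo2 (2.73) and Cux1 (2.71). Kcnip4 encodes a potassium channel-interacting protein, Epha3 an ephrin receptor, Fn1 fibronectin and Cux1 an upper-layer transcription factor. Since they were chosen from the wildtype nuclei of cluster 2 that are few in knockout, their levels there are also given without a test. Kcnip4 was 331 ± 169 CPM in wildtype and 28.8 ± 10.1 CPM in knockout samples, and Cux1 129 ± 41.1 and 41.7 ± 13.5 CPM. Not every gene of the 10 differed so: Epha3 was 693 ± 193 CPM in wildtype and 660 ± 168 CPM in knockout samples. In cluster 1, whose nuclei were not used for the choice, 2 of the 10 (Tafa2 and Cux1) were called with edgeR, both lower, and 5 with the replicate block, of which 4 were lower and 1 higher. In clusters 3 and 6 none was called with edgeR or DESeq2, with 4 of 10 at an unadjusted edgeR p under 0.05 in each. The block called 4 and 2 there, all lower. Of all genes tested without the block, edgeR called 4.84%, 3.36% and 0.779% in clusters 1, 3 and 6.

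Nuclei with 0 Unc5c UMIs were 5019 of 5725 wildtype and 5795 of 5954 knockout nuclei of cluster 2, so their Dcc level is nearly that of the whole cluster and no separate result. It was 3324 ± 448 CPM in wildtype and 5864 ± 946 CPM in knockout samples.

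Detection of receptors in the same nucleus was compared with the product of their shares within a cluster and sample, after thinning. In cluster 3, Unc5b and Unc5c occurred together in 28 wildtype nuclei where 8.90 were expected, a ratio of 3.15 (2.86 to 3.64 over samples), and the knockout ratio was 2.45. Unc5c and Dcc occurred together less than expected there, with ratios of 0.82 in wildtype (0.73 to 0.86 over samples) and 0.80 in knockout. Within cluster 3, Dcc was accordingly lower in nuclei with at least 2 Unc5c UMIs than in nuclei with none in all 8 samples, for example 1210 against 2326 CPM in wildtype replicate 2.

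In cluster 1 other pairs departed from the product of their shares. Unc5a and Unc5c occurred together in 33 wildtype nuclei where 16.4 were expected and in 14 knockout nuclei where 7.14 were. Unc5c and Unc5d occurred together in 301 wildtype nuclei where 409 were expected, a ratio of 0.74 (0.60 to 0.80 over samples), and the knockout ratio was 0.93. In cluster 2 Unc5c and Dcc were near the product of their shares, at 1.08 in wildtype and 0.98 in knockout. With Dcc in 95.8% of those knockout nuclei, the knockout ratio could not rise far above 1. Unc5d and Dcc, the most widely detected pair, shared 84.5% of wildtype and 87.2% of knockout nuclei of cluster 5, at ratios of 0.996 and 0.999. Unc5d and Dcc were each found in 93.1% and 91.1% of those wildtype nuclei and 90.8% and 96.1% of those knockout nuclei. Ratios far from 1 were thus not possible, and these values do not show whether the 2 genes occur independently. Of 70 shares of co-detection 9 had an exact permutation p under 0.05 between genotypes, and none passed after adjustment (smallest adjusted p 0.222 by the exact permutation tests). Passing would have taken more than 40 tests at the smallest possible p.

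The other genes of the netrin pathway were taken from a list of 51 ligands, receptors, effectors and reported regulators, of which 44 were in the table. Over all nuclei 3 of 44 were called with edgeR, or 6.82% beside the 5.26% of all genes. All 3 were lower: Ntn1, Adgrl3 and Ntng1. In cluster 2, 9 of 43 tested were called, 4 higher and 5 lower, or 20.9% beside the 9.11% of all genes. Cluster 1 had 3 of 43 (6.98% beside 4.84% of all genes) and cluster 3 had 5 of 43 (11.6% beside 3.36%). Cluster 4 had 3 of 44 (6.82% beside 4.29%) and cluster 5 had 4 of 43 (9.3% beside 1.77%). Clusters 6 and 7 had 0 of 40 and 0 of 42 with edgeR, beside 0.779% and 1.03% of all genes. There 3 and 6 genes had an unadjusted edgeR p under 0.05, and DESeq2 gave 1 call (Dscam) and 0. With the replicate block the count was 6 over all nuclei (also Bcl11b, Dscam and Dscaml1), 5 in cluster 1 (also Dscam and Dscaml1), and 1 each in clusters 6 and 7 (Dscam).

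Among the ligands, Ntn1, which encodes netrin-1 itself, was highest in apical progenitor-like cluster 4 and fell there from 15.4 to 50.5 CPM in wildtype to 9.16 to 9.91 CPM in knockout samples (−1.90 ± 0.29, edgeR adjusted p 0.0029). The groups did not overlap, and the wildtype samples were far more spread. In cluster 2 Ntn4, a laminin-binding netrin, rose from 12.8 ± 1.80 to 23.6 ± 6.55 CPM (0.88 ± 0.20), and Draxin, a secreted ligand of Dcc, rose from 89.6 ± 6.85 to 136 ± 15.01 CPM (0.61 ± 0.09). Rgma, a ligand of the Dcc relative neogenin, fell in clusters 2 (−0.56 ± 0.11) and 3 (−0.61 ± 0.10). Flrt2, a ligand of Unc5 proteins, rose in cluster 1 (0.27 ± 0.05) and was not called in cluster 2 (−0.02 ± 0.08).

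Among the other receptors, Dscam, an adhesion molecule that binds netrin-1, rose in cluster 2 from 495 ± 58.0 to 794 ± 134 CPM (0.69 ± 0.12) and in cluster 5 (0.45 ± 0.09). Neo1, which encodes neogenin, rose in cluster 3 (0.49 ± 0.08), and in cluster 2 its change of 0.32 ± 0.10 had an edgeR adjusted p of 0.0644, and of 0.0321 with the block. Adgrl3, the latrophilin that binds Flrt and Unc5 proteins, fell in clusters 1 (−0.35 ± 0.07), 2 (−0.93 ± 0.11) and 3 (−0.42 ± 0.09). Adgrl2 fell in cluster 2 (−0.37 ± 0.08), and Dscaml1 fell in cluster 5 (−0.59 ± 0.12).

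The netrin-G proteins are membrane-anchored relatives of the netrins that bind Lrrc4 family partners and not Dcc or Unc5. Ntng1 fell in cluster 2 from 48.6 ± 12.7 to 18.3 ± 6.94 CPM (−1.45 ± 0.23) and in cluster 4 (−1.04 ± 0.10), its partner Lrrc4c fell in cluster 2 (−0.77 ± 0.11), and Ntng2 rose in cluster 3 (1.11 ± 0.17). Of 24 intracellular effectors edgeR called none over all nuclei or in clusters 1 and 2, beside 5.26%, 4.84% and 9.11% of all genes. There 4, 5 and 5 effectors had an unadjusted edgeR p under 0.05, and DESeq2 called none. Trim9 passed in cluster 2 with the block, where it was higher in knockout (edgeR adjusted p 0.0332). Single effectors were lower in other clusters: the actin-binding Ablim1 in cluster 3 (−0.30 ± 0.06), and Trim9, a ubiquitin ligase that binds Dcc, in clusters 4 (−0.94 ± 0.14) and 5 (−0.52 ± 0.11).

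Of 3 reported regulators of Unc5c and Dcc, Bcl11b, a transcription factor of subcerebral projection neurons, was called. Bcl11b rose in cluster 1 from 465 ± 49.1 to 762 ± 127 CPM (0.74 ± 0.11, edgeR adjusted p 0.00085) and in cluster 2 from 960.2 ± 153 to 1423 ± 174 CPM (0.57 ± 0.12, edgeR adjusted p 0.0064). Its rise in cluster 5 (0.45 ± 0.10, edgeR adjusted p 0.0389) had an adjusted p of 0.0592 with the block. Lmo4 and Ski were not called in cluster 2 (−0.35 ± 0.12 and −0.11 ± 0.11). Bcl11b is also one of the deep-layer markers counted above.

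**Figure D5:**
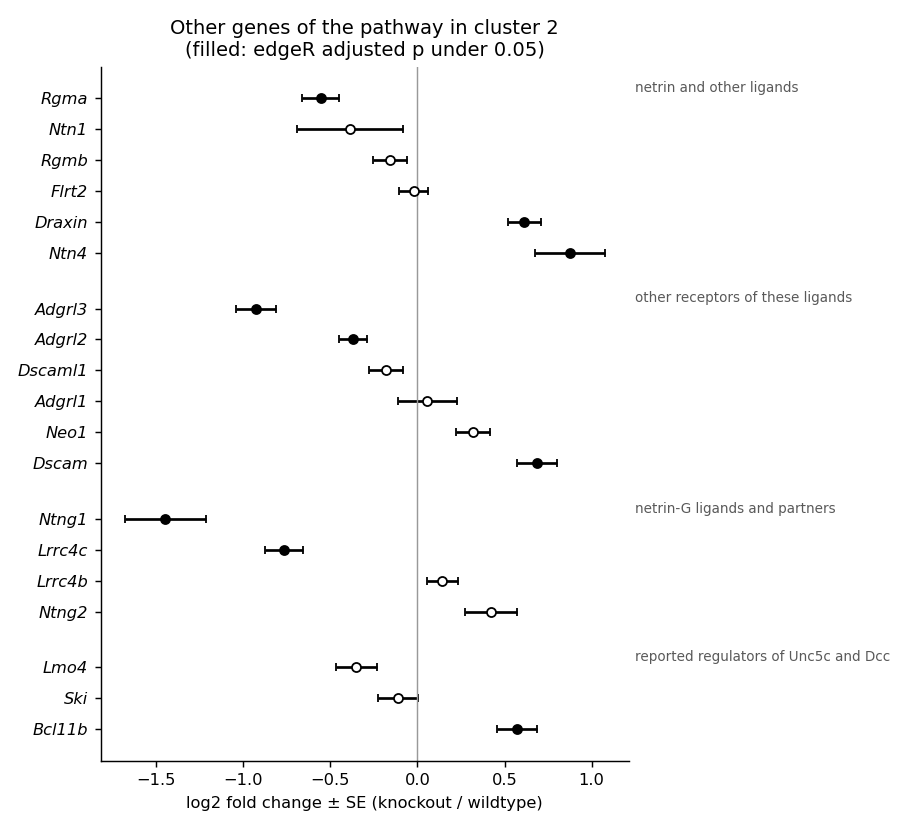
Log2 fold change in cluster 2, knockout over wildtype (± SE, edgeR), of the tested ligands, other receptors, netrin-G genes and reported regulators on the pathway list; filled points passed the adjusted threshold. Ntn4, Dscam, Draxin and Bcl11b lie to the right of 0, and Ntng1, Adgrl3, Lrrc4c, Rgma and Adgrl2 to the left.

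Genes whose levels followed each receptor were sought over the 28 wildtype sums of sample and cluster, by Pearson correlation of log2(CPM + 1). The 28 points share 4 libraries and 7 clusters, so the values are descriptive. Unc5c was most like Mef2c (0.92), Pdzrn4 (0.92) and Ogdhl (0.90), Unc5d most like Slc17a6 (0.97), Srrm2 (0.94) and Cep120 (0.94), and Dcc most like Onecut2 (0.94), Macrod1 (0.92) and Tmem178 (0.91). Unc5a was most like Cntnap5a (0.91), Clstn3 (0.91) and Slc49a4 (0.90). For Unc5b, with its few UMIs, the values were lower, at 0.84 for Gm37240, 0.82 for Lypd6 and 0.80 for Fzd3. Slc17a6 encodes a vesicular glutamate transporter, Mef2c a transcription factor of postmitotic neurons and Onecut2 a homeodomain factor.

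The genomic neighbours of the changed receptors were taken as the genes within 1 Mb. In cluster 2, 0 of 5 neighbours of Unc5c were called with edgeR or DESeq2 (1 at an unadjusted edgeR p under 0.05), and their log2 changes lay between −0.30 and 0.31, the lowest being Bmpr1b, 2.21 kb away in the deposited positions. Bmpr1b, a BMP receptor, was higher in knockout in cluster 3 (0.78, edgeR adjusted p 0.0053), where Unc5c was not called. With the replicate block Bmpr1b was called lower in cluster 6, where Unc5c was also called lower with the block. Pdlim5 and Kyat3 were lower in cluster 4 (−0.78 and −0.88). Of 5 neighbours of Dcc 4 were tested in each cluster, and none had an unadjusted edgeR p under 0.05 or a DESeq2 call, with log2 changes in cluster 2 between −0.41 and 0.16.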

How the data were processed

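UMIs per gene and nucleus were deposited by the authors as raw counts for each of 8 samples. Per the submitters' processing notes, kallisto, bustools and the build mm10 were used, without versions, and whether introns were counted is not given in the sources used here. The deposited cluster number is another value of the authors and was used as it stands. The deposited hybrid doublet score, per the file headers a score, was at most 0.499954, so nuclei above 0.5 were absent and no doublet caller was run. All nuclei were kept. The deposited gene positions differ from GRCm38 and their build is not given in the sources used here, so printed coordinates come from GENCODE M21.

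Sums of UMIs were formed for each sample, for all its nuclei and for each cluster (at least 314 nuclei per sample and cluster). The genotypes were compared in edgeR 4.0.16 under R 4.3.3 (TMM, filterByExpr, glmQLFit, glmQLFTest, genotype as the term), adjusted by Benjamini-Hochberg over all genes of a fit with a threshold of 0.05; 1 gene without a symbol was left out. Differences between clusters were tested as a genotype-by-cluster term with a term per sample. Standard errors come from the F statistic. Printed CPM are UMIs over the total, without TMM factors. The fits were tested on simulated counts. Alternatives were RLE scaling, DESeq2 1.42.0, no filter, the replicate number as a block, an Xist covariate and leaving out each sample. Summing clusters 1 and 2 was added after seeing the data.

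Same-numbered samples deviated together from their group means, with correlations across genes of 0.397, 0.185, 0.193 and 0.179 for numbers 1 to 4, each over 0.1. The numbers were therefore used as pairs in the blocked alternative, while the main fits held genotype alone. Of 12 pairs with different numbers 3 were also over 0.1, and these 12 lay between −0.355 and 0.286, the highest being wildtype 3 with knockout 4. The labels give no reason for the pairing. Blocked values are printed where they change the call of a receptor or of a pathway gene. The share of all genes called was not computed for the blocked fits, so blocked counts stand without it.

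The members, the gene lists and cluster 2 as the reference were chosen with earlier results of these data known. The genes named are the members, the listed pathway genes, the 3 genes most like each member, the 10 genes highest in wildtype cluster 2 nuclei with at least 2 Unc5c UMIs, and neighbours within 1 Mb. A gene of the lists is not reported here and was left out of the marker counts and of these rankings.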

Additional observations from a re-analysis of the deposited data

Results flagged for a closer look

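In 80 groups of 4 samples (5 receptors over all nuclei and 7 clusters, in both genotypes), 3 had a sample far from its neighbours by Dixon's criterion, which chance gives in about 1 of 20 groups. Dcc in knockout samples of cluster 2 had its lowest sample, replicate 4, at 4487 CPM, with the next at 6197 CPM. Unc5d in wildtype samples of cluster 6 had its highest sample, replicate 1, at 996 CPM, with the next at 699 CPM. Unc5b in wildtype samples of cluster 6 had its lowest sample, replicate 3, at 2.05 CPM, with the next at 3.61 CPM.

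The change with genotype differed between cluster 2 and another cluster in 11 tests of the difference itself. For Unc5c, cluster 2 minus the other cluster was −1.87 for cluster 1, −3.34 for cluster 3, −2.36 for cluster 4, −3.09 for cluster 5, −2.28 for cluster 6 and −2.84 for cluster 7 on the log2 scale. For Dcc it was 0.45 for cluster 1, 0.36 for cluster 3, 0.63 for cluster 6 and 0.59 for cluster 7. For Unc5d it was 0.89 for cluster 6.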

How the results depend on the processing

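Over all nuclei, the same count of 2 receptors was called under each of 13 alternatives. Within clusters the count of 8 calls lay between 5 and 8 when 1 sample was left out, with 5 without wildtype replicate 4 and without knockout replicate 3, and was 11 with the replicate block. Unc5c in clusters 1 and 2 and Dcc in clusters 2 and 3 passed under every alternative run. With 1 sample left out, the log2 change lay between 0.30 and 0.42 for Dcc in cluster 1, −1.33 and −0.78 for Unc5c in cluster 4, 0.39 and 0.59 for Dcc in cluster 4, and 0.30 and 0.40 for Dcc in cluster 5, each with calls lost. Dcc in cluster 5 also missed the threshold with the replicate block (0.35, edgeR adjusted p 0.0505) and the Xist covariate (0.35, edgeR adjusted p 0.0656). The Dcc difference of cluster 2 from cluster 1 missed it with DESeq2 (0.45, adjusted p 0.0981) and lay between 0.35 and 0.57 with 1 sample left out. Unc5c in cluster 6 passed with DESeq2 (adjusted p 0.0057), without the filter, with the block and with the Xist covariate. Among the receptor tests over all nuclei and within clusters, the block changed no call other than Dcc in clusters 5 and 7, Unc5c in cluster 6 and Unc5d in clusters 1 and 6. The tests between clusters already hold a term per sample and were not run with it. No called value changed direction. Causes were not tested. Unc5b, with 545 wildtype UMIs in all, and the 4 samples per group limit what could be detected.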
